A study of Homo sapiens with 7 samples.

Results

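The 6 microRNAs described here, miR-9, miR-124, miR-128, miR-132, miR-137 and miR-138, are known for their abundance or function in the nervous system. They were chosen by name, and an assay for each was among the 377 human microRNA assays on the card. MicroRNA levels were measured by quantitative PCR in 7 lung derivative lines of MDA-MB-435-GFP, 1 TaqMan Human MicroRNA Array A card per line. The question put to these lines was which microRNAs differ between tumor cells that form few and tumor cells that form many metastases.

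MDA-MB-435 is a human cell line long used as a model of breast carcinoma, whose expression profile and genotype match those of a melanoma line. All 7 lines carry green fluorescent protein and descend from the same parental line, MDA-MB-435-GFP. The 3 oligometastatic lines (L1-R2, numbered 4T, 3T and 8T) were established from lungs of mice injected with cells grown from macroscopic lung metastases. The 4 polymetastatic lines (L1Mic-R2, numbered 2T, 3T, 7T and 8T) came from lungs of mice injected with tumor cells recovered from lung tissue free of macroscopic lesions. Per the study's methods, the hosts were athymic female mice injected through the tail vein, and each line came from a distinct animal. All L1-R2 lines descend from the same earlier line, L1-R1, and all L1Mic-R2 lines from L1Mic-R1. Both earlier lines were taken from the same lung. Metastatic behavior and founder line therefore cannot be told apart in these groups. Athymic mice lack T cells, so that the lines were selected without them. The labels instead place the injection in the mammary fat pad, and they also name a SYBR dye where the study describes TaqMan assays. The description of the study is followed here.

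Neural microRNAs repress large sets of messenger RNAs by pairing of their seed, the bases from 2 to 8, with target sites. miR-124 and miR-9 rise as neural progenitors become neurons, and miR-124 represses genes of non-neuronal cells. miR-128 is enriched in neurons. miR-132 is induced by neuronal activity through the transcription factor CREB, miR-138 acts at dendritic spines, and miR-137 is expressed in neurons and can repress MITF, the master regulator of melanocytes. Melanocytes derive from the neural crest.

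The mature sequences are shown because they separate the assays. Each microRNA has a seed of its own, with the exception of the pair miR-132 and miR-212. Sequences are RNA, 5′ to 3′, from RefSeq (GRCh38.p14), with the seed in capitals.
miR-9: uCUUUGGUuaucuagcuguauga
miR-128: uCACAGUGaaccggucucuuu
miR-132: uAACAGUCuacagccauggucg
miR-137: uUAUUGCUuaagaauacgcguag
miR-138: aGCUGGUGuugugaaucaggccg
miR-212: uAACAGUCuccagucacggcc

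The 5 members with a sequence in the table had 5 distinct seeds. miR-212 is no member of the group of 6, and it is shown because it has the seed of miR-132, AACAGUC. The pair matched at 17 of 21 positions counted from the 5′ end, and the first 9 bases were identical. The seed of miR-128 was shared by miR-216a-3p and miR-3681-3p.

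The hairpins lie at 1 to 3 places in the genome, and a card cannot tell copies with the same mature sequence apart. miR-9 has 3 hairpin genes (GRCh38.p14, 1-based). MIR9-1 lies on chromosome 1 (156420341 to 156420429, minus strand), MIR9-2 on chromosome 5 (88666853 to 88666939, minus strand) and MIR9-3 on chromosome 15 (89368017 to 89368106, plus strand), each within the span of a long noncoding host gene, MIR9-1HG, MIR9-2HG and MIR9-3HG. MIR128-1 lies within R3HDM1 on chromosome 2 (135665397 to 135665478, plus strand) and MIR128-2 within ARPP21 on chromosome 3 (35744476 to 35744559, plus strand). MIR132 (2049908 to 2050008) and MIR212 (2050271 to 2050380) are neighbours on the minus strand of chromosome 17, 262 bases apart and outside the span of any other gene in the table. MIR137 lies within MIR137HG on chromosome 1 (98046070 to 98046171, minus strand). miR-138 is encoded by MIR138-1 on chromosome 3 (44114212 to 44114310, plus strand), within LOC124909489, and by MIR138-2 on chromosome 16 (56858518 to 56858601, plus strand).

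The readout is the threshold cycle (Ct), the cycle of the PCR in which a well's fluorescence passes 0.3. A lower Ct stands for more RNA, and 1 cycle is close to 1 unit on the log2 scale. Wells that never passed the threshold are Undetermined and were set to 40. A microRNA with a raw Ct below 38 was called detected, which held for 172 to 184 microRNAs in the L1-R2 lines and 160 to 172 in the L1Mic-R2 lines. The number of cards, 3 and 4, limits the precision of every comparison, and since no card was repeated, differences between lines and assay error are not separable within a group. The numbers read here as card numbers split by group, since L1-R2 had 1 to 3 while L1Mic-R2 had 4 to 7. That they give the order of the runs is an assumption. If they do, card order and group cannot be told apart. Of the small RNAs that serve as controls, the raw Ct of U6 spanned 0.80 cycles over the lines, that of RNU44 2.29 and that of RNU48 2.16.

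The 6 microRNAs differed widely in level. miR-138, miR-9 and miR-132 were detected in all 7 lines, as were 35.8% of all microRNAs on the card. miR-128 was detected in 6 lines and miR-137 in 4. miR-124 was detected in 1 line. None of the 6 was Undetermined in all 7 lines, as 36.6% of the microRNAs on the card were. By raw Ct among the 377 microRNAs of each line, miR-138 ranked between 11 and 15, miR-9 between 42 and 53 and miR-132 between 44 and 62, where 1 is the lowest Ct. miR-128 ranked between 113 and 186, and miR-137 between 118 and 147 in the 4 lines with a Ct.

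**Figure D1:**
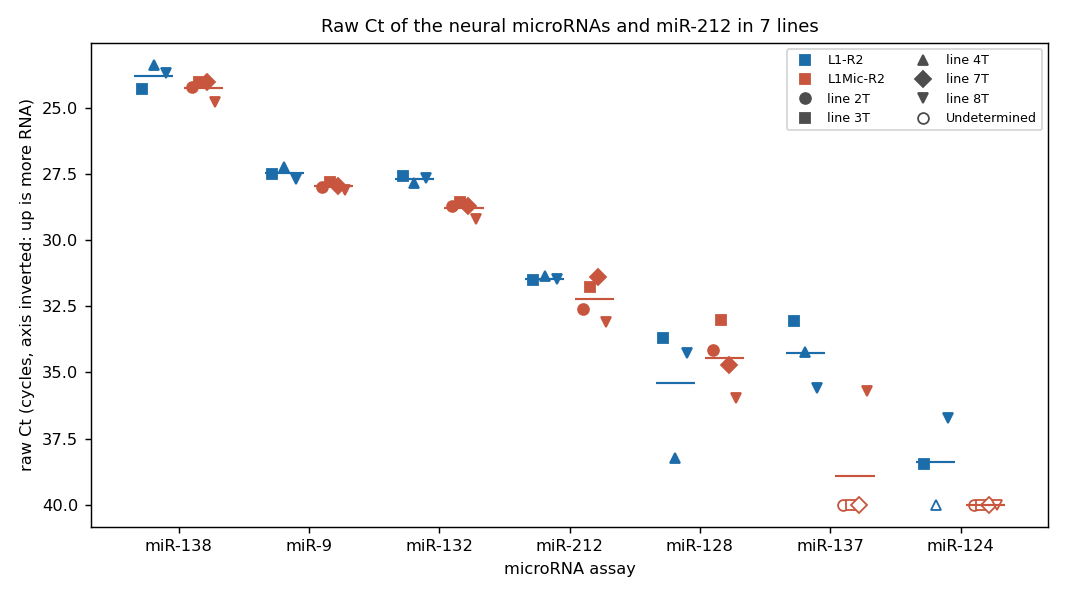
Raw Ct in cycles (vertical axis, inverted so that more RNA is higher) of the 6 neural microRNAs and miR-212 in each line. Symbols give the line number, colors the group, open symbols Undetermined wells set to 40, and horizontal bars group means. miR-138 lies between 23.38 and 24.79 in all lines, whereas miR-137 has a Ct in the 3 L1-R2 lines and in L1Mic-R2 line 8T.

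Ct of different assays also holds the efficiency of each assay, so the order below is one of Ct. After quantile normalization, which gives every card the same distribution of Ct, the means over 7 lines were 24.06 for miR-138, 27.78 for miR-9, 28.33 for miR-132, 35.02 for miR-128, 36.93 for miR-137 and 39.46 for miR-124. miR-9 stood 3.72 ± 0.43 cycles (SD, n = 7) above miR-138 on average and above it in every line (exact two-sided sign-flip permutation test, p = 0.0156, the smallest 7 lines allow; adjusted over 5 neighbouring pairs, 0.0391). miR-128 stood 6.69 ± 2.14 cycles (SD, n = 7) above miR-132 on average and above it in every line, with the same exact p and adjusted p. The remaining neighbours did not pass the test after adjustment. miR-132 stood 0.55 ± 0.38 cycles (SD, n = 7) above miR-9, in that order in 6 of 7 lines (exact permutation p = 0.0312, adjusted 0.0521). The difference was 1.91 ± 4.35 cycles (SD, n = 7) between miR-128 and miR-137 (exact permutation p = 0.234, adjusted 0.234). Between miR-137 and miR-124 it was 2.53 ± 2.64 cycles (SD, n = 7, exact permutation p = 0.125, adjusted 0.156). Both were Undetermined in L1Mic-R2 lines 2T, 3T and 7T, so their values were equal there by construction. miR-137 had the lower Ct in 4 of 7 lines, all those without such a tie. With these ties the test could not reach a p under 0.05, so it cannot decide this pair.

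In the comparison of L1Mic-R2 with L1-R2, none of the neural microRNAs passed the test across all microRNAs. Quantile-normalized values of the 181 microRNAs detected in at least 3 lines were fitted with limma and adjusted by the Benjamini-Hochberg method. At an adjusted p under 0.05, 9 of 181 microRNAs (4.97%) were called, 3.31% as higher and 1.66% as lower in L1Mic-R2, and 0 of the 5 neural microRNAs that entered. At an unadjusted p under 0.05 there were 35 of 181 (19.3%), and 9.94% with the lower level in L1Mic-R2. miR-132 and miR-137 were among the latter. miR-124 did not pass the filter on detection and was not tested. The log2 fold change, given as L1Mic-R2 over L1-R2, was below 0 for 4 of the 5 (miR-9, miR-132, miR-137 and miR-138) and for 45.9% of all tested (60.2% on raw Ct, where the same 4 were below 0). Its median was -0.26 against 0.06 over all tested. On simulated data the same fit recovered 18% of microRNAs with a log2 change of 1 and 71.8% of those with a log2 change of 3, among 181 microRNAs, of which 20 were changed, and 9.32% and 4.65% of the calls were false. The simulated errors were independent and normal, without Undetermined wells and without a normalization step. These rates were therefore not tested for microRNAs near the limit of detection, such as miR-137 and miR-128.

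**Figure D2:**
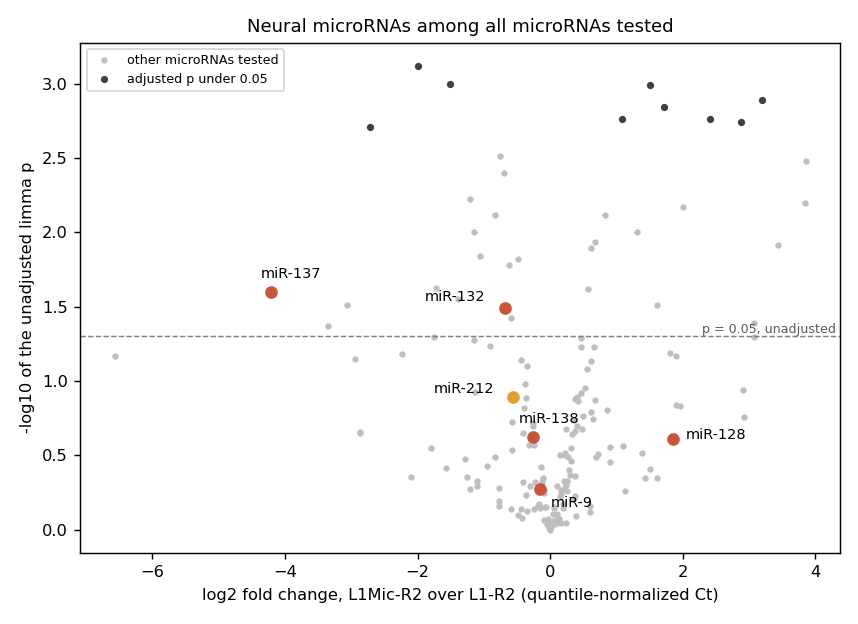
Log2 fold change on quantile-normalized Ct, L1Mic-R2 over L1-R2 (horizontal axis), against -log10 of the unadjusted limma p (vertical axis) for the 181 microRNAs tested, with the neural microRNAs in red and miR-212 in yellow. Dark points are the 9 microRNAs with an adjusted p under 0.05, and miR-132 and miR-137 lie above the dashed line of an unadjusted p of 0.05 without being among them.

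miR-132 was lower in every L1Mic-R2 line than in every L1-R2 line both before and after normalization, the only one of the 5 tested for which this held. The 3 L1-R2 lines had a raw Ct of 27.85 (4T), 27.59 (3T) and 27.67 (8T), and the 4 L1Mic-R2 lines had 28.71 (2T), 28.57 (3T), 28.70 (7T) and 29.21 (8T). Values below keep this order of lines. Every L1Mic-R2 line was later than every L1-R2 line, with 0.72 cycles between the closest lines, and the means were 27.71 ± 0.13 (SD, n = 3) and 28.80 ± 0.28 (SD, n = 4). The exact two-sided permutation test gave p = 0.0286, the smallest that 35 splits of 3 and 4 lines allow. In RNA from a whole line, fewer cells with a microRNA and less of it per cell cannot be told apart. Raw Ct did not overlap between the groups for 20.4% of the microRNAs tested, and for 13.8% with the lower level in L1Mic-R2. Of the microRNAs tested, 21.0% had a raw log2 fold change as low as that of miR-132, -1.09, or lower.

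After quantile normalization miR-132 stood at 28.38, 27.44 and 27.98 in L1-R2 and at 28.51, 28.51, 28.74 and 28.74 in L1Mic-R2. The groups still did not overlap, as for 19.3% of the microRNAs tested, but the closest lines were 0.13 cycles apart. Lines share a value where miR-132 has the same rank on their cards. The level was 1.61-fold higher in L1-R2, a log2 fold change of -0.69 (SE 0.25, 95% interval -1.29 to -0.08, limma adjusted p = 0.182). The difference depended on the scale, and the adjusted p ranged from 0.0633 to 0.75 over the alternatives. The log2 fold change was -1.09 on raw Ct (adjusted p = 0.0657), -1.04 relative to U6 (0.0634), -0.86 relative to the average of those microRNAs with a Ct below 38 throughout (0.0633) and -0.29 relative to RNU44 and RNU48 (0.75). These scales also move all microRNAs together, since the median log2 fold change of all tested was 0.06 after quantile normalization, -0.25 on raw Ct, -0.19 relative to U6 and 0.56 relative to RNU44 and RNU48. Counted from that median, miR-132 was at -0.74 after quantile normalization and at -0.85 on each of the other scales. Those other scales differ only by a constant per card. Their shared value is therefore fixed by construction and is no repeat of the result.

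**Figure D3:**
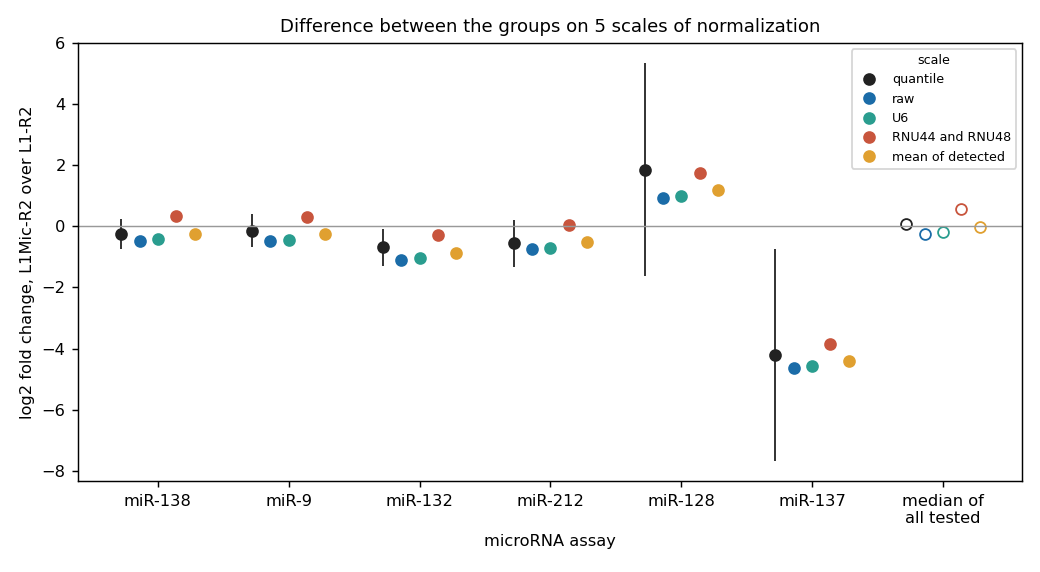
Log2 fold change, L1Mic-R2 over L1-R2 (vertical axis), for 5 neural microRNAs and miR-212 on 5 scales of normalization, with the 95% limma interval drawn for the quantile scale; open points give the median of all 181 microRNAs tested. miR-132 and miR-137 stay below 0 and miR-128 above 0 on all 5 scales, whereas miR-9, miR-138 and miR-212 are above 0 only relative to RNU44 and RNU48, where the median of all is 0.56.

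Differences between assays of the same card need no normalization. miR-132 minus miR-9 averaged 0.23 ± 0.32 cycles (SD, n = 3) over the L1-R2 lines and 0.83 ± 0.17 (SD, n = 4) over the L1Mic-R2 lines. The groups did not overlap, with -0.01 to 0.60 against 0.72 to 1.08 (exact two-sided permutation test, p = 0.0286, adjusted over the 6 pairs of miR-9, miR-132, miR-138 and miR-212, 0.171). miR-138 minus miR-132 was -3.91 ± 0.60 (SD, n = 3) and -4.52 ± 0.10 (SD, n = 4), with overlapping groups (exact permutation p = 0.0571, adjusted 0.171). miR-138 minus miR-9 was -3.69 in both groups, with SDs of 0.44 and 0.24. The 3 other pairs, those with miR-212, gave exact permutation p of 0.457 or above.

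miR-212, made from the same locus as miR-132 and sharing its seed, had a later Ct than miR-132 in every line. Raw Ct values were 31.36, 31.52 and 31.49 in L1-R2 and 32.59, 31.76, 31.39 and 33.11 in L1Mic-R2. L1Mic-R2 lines 2T and 8T were later than all L1-R2 lines, as was line 3T by a smaller margin, and line 7T lay among the L1-R2 lines, so that the groups overlapped. After normalization the means were 31.52 ± 0.33 (SD, n = 3) and 32.07 ± 0.48 (SD, n = 4), a log2 fold change of -0.56 (SE 0.32, limma adjusted p = 0.396). miR-212 minus miR-132 ran from 3.50 to 3.93 cycles in L1-R2 and from 2.69 to 3.91 in L1Mic-R2 (exact permutation p = 0.457). Over the 7 lines the normalized Ct of the pair correlated with Pearson r = 0.56 (exact permutation p = 0.193) and Spearman rho = 0.58 (exact permutation p = 0.186). Without the 2 lines farthest from the median of miR-132, r was 0.28, and for deviations from the group means it was 0.16. Since miR-132 separated the groups, the pooled r holds the difference between groups as well, and neither group has enough lines for a value of its own.

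miR-137 differed most in whether it was measured at all. The L1-R2 lines had raw Ct values of 34.22, 33.06 and 35.58. In L1Mic-R2 it was Undetermined in lines 2T, 3T and 7T and 35.70 in line 8T. It was therefore detected in 3 of 3 L1-R2 and 1 of 4 L1Mic-R2 lines (Fisher's exact test, two-sided, p = 0.143). Of the 377 microRNAs on the card, 3 (0.796%) were detected in all L1-R2 lines and in at most 1 L1Mic-R2 line. The others, named after their values were seen, were miR-181c and miR-218. The pattern counted is that of miR-137 itself, so the share is only a description. Among the 377 were 135 microRNAs detected in all lines and 138 Undetermined in all, which could not meet it. The reverse pattern, all L1Mic-R2 lines and at most 1 L1-R2 line, was met by 1 microRNA (0.265%). Fewer microRNAs were detected in L1Mic-R2 lines in general (160 to 172 against 172 to 184), and whether this had a part in the result was not tested. Line 8T, the only L1Mic-R2 line with miR-137, had the fewest microRNAs detected of all 7.

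With Undetermined wells at 40, the log2 fold change of miR-137 was -4.21 (SE 1.43, 95% interval -7.69 to -0.73, limma adjusted p = 0.163). The size follows from the value given to Undetermined wells, being -2.71 with all Ct limited to 38 and -0.67 with all limited to 35. Between lines with a Ct, the difference on raw Ct was -1.41, which rests on 1 L1Mic-R2 line. The L1Mic-R2 line 8T at 35.70 was 0.11 cycles later than L1-R2 line 8T, so that the groups did not overlap on raw Ct (exact two-sided permutation test of means, p = 0.0571). Of the microRNAs tested, 13.8% were likewise lower in L1Mic-R2 without overlap. After normalization L1Mic-R2 line 8T stood at 34.91, within the range of the L1-R2 lines at 33.48 to 35.51 (exact permutation p = 0.0857). Without L1Mic-R2 line 8T the log2 fold change was -5.60 with a limma adjusted p of 0.0195, where over the other alternatives the adjusted p went up to 0.697. This omission was the only setting in which a neural microRNA passed the test. Since miR-137 passed the filter through the group in which it was measured, its entry among the tested microRNAs is no support for a difference.

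The fluorescence of the wells at the end of the PCR (a deposited column identified as such from its values) gave the size of the amplification without the value of 40. It was 2.65, 2.30 and 1.84 in the L1-R2 lines and 0.0533, 0.134, 0.156 and 1.81 in those of L1Mic-R2, in the order given above. The well of L1Mic-R2 line 8T amplified nearly as far as that of L1-R2 line 8T, and the other 3 wells stayed below the threshold of 0.3, which is what makes them Undetermined. The readout is therefore not independent of the Ct calls.

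**Figure D4:**
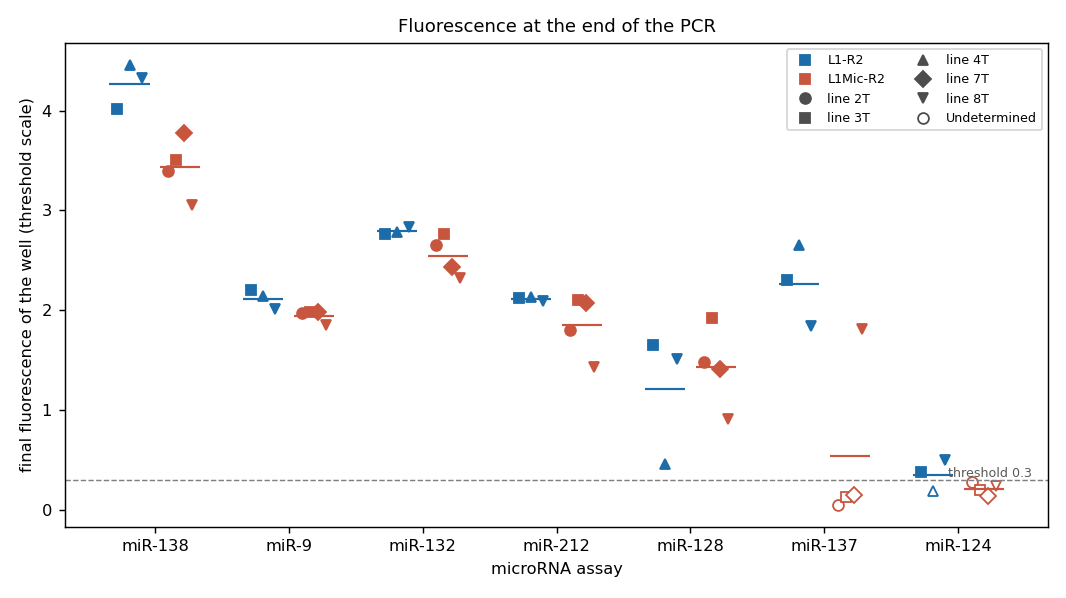
Fluorescence at the end of the PCR, on the scale of the threshold (vertical axis), for the same assays, lines, symbols and group means as in the plot of raw Ct; the dashed line is the threshold of 0.3. For miR-137 the 3 L1-R2 wells and the well of L1Mic-R2 line 8T lie between 1.81 and 2.65, and the other 3 L1Mic-R2 wells at 0.156 or below.

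miR-9 had the narrowest range of raw Ct of the 6. Raw Ct values were 27.26, 27.49 and 27.68 in L1-R2 and 27.99, 27.80, 27.96 and 28.13 in L1Mic-R2, a range of 0.88 cycles where the median range of the 135 microRNAs detected in all lines was 1.46. All L1Mic-R2 lines were later than all L1-R2 lines on raw Ct, the closest by 0.12 cycles (exact two-sided permutation test, p = 0.0286). The same held for 13.8% of the microRNAs tested. After normalization the values were 27.74, 27.27 and 28.07 in L1-R2 and 27.94, 27.70, 27.94 and 27.77 in L1Mic-R2, and the groups overlapped. The log2 fold change was -0.15 (SE 0.22, 95% interval -0.69 to 0.40, limma adjusted p = 0.737), and it was 0.31 relative to RNU44 and RNU48, where the median of all was 0.56. Counted from the median of all microRNAs it was -0.20 after quantile normalization and -0.25 on the other scales, which share this value by construction.

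miR-138 had the lowest Ct of the 6. Raw Ct values were 23.38, 24.31 and 23.68 in L1-R2 and 24.23, 24.05, 24.04 and 24.79 in L1Mic-R2. L1-R2 line 3T was later than 3 of the L1Mic-R2 lines, so that the groups overlapped. The normalized means were 23.91 ± 0.31 (SD, n = 3) and 24.17 ± 0.13 (SD, n = 4), with a log2 fold change of -0.26 (SE 0.20, 95% interval -0.73 to 0.22, limma adjusted p = 0.519), which was 0.32 relative to RNU44 and RNU48. Counted from the median of all microRNAs it was -0.31 after quantile normalization and -0.24 on each of the other scales, which share this value by construction. The SD of the normalized Ct over 7 lines was 0.24 for miR-138, 0.26 for miR-9 and 0.47 for miR-132, and its median over the 135 microRNAs was 0.43. Of these 135, 16.3% had a lower SD than miR-138 and 18.5% a lower SD than miR-9.

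At the end of the PCR the wells of miR-138 reached 4.46, 4.02 and 4.33 in L1-R2 and 3.40, 3.51, 3.78 and 3.06 in L1Mic-R2. The groups did not overlap in this readout, although their Ct did (exact two-sided permutation test, p = 0.0286). The ratio of the means, L1Mic-R2 over L1-R2, was 0.805. Final fluorescence was lower in L1Mic-R2 for most assays, with a median ratio of 0.911 over the 135 microRNAs detected in all lines, and it was lower in L1Mic-R2 without overlap for 18.5% of them. The ratio was 0.918 for miR-9 and 0.913 for miR-132. For miR-9 the groups did not overlap in this readout (2.01 to 2.20 against 1.85 to 1.98, exact permutation p = 0.0286, adjusted 0.1), and for miR-132 they did (2.76 to 2.83 against 2.32 to 2.76, exact permutation p = 0.143, adjusted 0.233).

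miR-128 varied by single lines rather than by group. Raw Ct values were 38.24, 33.69 and 34.27 in L1-R2 and 34.15, 33.01, 34.74 and 35.97 in L1Mic-R2. L1-R2 line 4T was the latest, and the other L1-R2 lines lay among the L1Mic-R2 lines. The well of line 4T also ended at the lowest fluorescence, 0.466, where the other lines ranged from 0.912 to 1.92. The card of this line had the most microRNAs detected and the lowest Ct of U6, RNU44 and RNU48. Its late miR-128 rests on 1 well, and the cause was not tested. The normalized means were 36.07 ± 3.08 (SD, n = 3) and 34.22 ± 0.96 (SD, n = 4), and the log2 fold change was 1.85 (SE 1.44, 95% interval -1.64 to 5.35, limma adjusted p = 0.525). Leaving out L1-R2 line 4T moved it to 0.08.

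miR-124, among the most abundant microRNAs of the brain, was at the limit of the assay. It was Undetermined in L1-R2 line 4T and in all 4 L1Mic-R2 lines, and its raw Ct was 38.47 in L1-R2 line 3T and 36.73 in L1-R2 line 8T. Only line 8T counted as detected. The wells with a Ct ended at 0.380 and 0.502, close to the threshold of 0.3, and the Undetermined wells at 0.140 to 0.280. The exact two-sided permutation test on raw Ct gave p = 0.143.

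Counted per line, 4, 5 and 6 of the neural microRNAs were detected in L1-R2, and 4, 4, 4 and 5 in L1Mic-R2. The means were 5 ± 1 (SD, n = 3) and 4.25 ± 0.50 (SD, n = 4), a difference of -0.75 that did not pass the exact two-sided permutation test (p = 0.371). It was -0.25 without L1-R2 line 8T (exact permutation p = 1.0), -1.25 without L1-R2 line 4T (exact permutation p = 0.133) and -1.42 when any Ct counted as detected (exact permutation p = 0.0857).

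For each of the 3 neural microRNAs detected in all lines, the normalized Ct was set against the 133 others that were detected in all lines and varied. The most alike over the 7 lines were miR-21 (r = 0.76), miR-494 (0.70) and miR-200c (0.65) for miR-9. They were miR-320 (0.96), miR-222 (0.88) and miR-28-3p (0.82) for miR-132, and miR-19b (0.90), miR-194 (0.84) and miR-509-5p (0.79) for miR-138. These are the highest of many correlations over 7 lines on shared cards, and they are given as a description.

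Of 19 other microRNAs known from the nervous system, 18 were on the card, and 8 of these were Undetermined in all 7 lines. In 4 the Ct was below 38 in all lines, and 8 were tested. None was called at an adjusted p under 0.05 by limma, and 4 had an unadjusted p under 0.05, as did 19.3% of all microRNAs tested. The log2 fold change was above 0 for 5 and below 0 for 3, beside 45.9% below 0 over all tested, with a median of 0.29 beside 0.06. The lowest Ct among them was that of miR-135b, with a mean raw Ct of 27.54 and a log2 fold change of 0.42 (limma adjusted p = 0.396). miR-149 followed with a mean raw Ct of 31.28 and a log2 fold change of 1.61 (limma adjusted p = 0.18). The other 3 with an unadjusted p under 0.05 are named after their values were seen. miR-219-1-3p (log2 fold change 3.84) and miR-330-3p (2.01) shared the smallest limma adjusted p, 0.0819. Both were near the limit of detection. miR-219-1-3p had a raw Ct of 36.0 to Undetermined in L1-R2 and 34.32 to 35.74 in L1Mic-R2. It passed the filter through L1Mic-R2, and its size depends on the value given to Undetermined wells. miR-330-3p was at 36.62 to 37.56 in L1-R2 and 35.02 to 36.95 in L1Mic-R2, which overlap. miR-218 had a log2 fold change of -3.07 (limma adjusted p = 0.18), with a raw Ct of 34.48 to 36.42 in the L1-R2 lines, 35.90 in L1Mic-R2 line 7T and Undetermined wells in the other 3 L1Mic-R2 lines. miR-137 and miR-218 were thus measured in different L1Mic-R2 lines. These microRNAs of the wider neural set did not share a direction.

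The lines were also read for microRNAs of other cell types. The melanocyte lineage list was measured best, with 8 of 11 detected in all lines, led by miR-146a (mean raw Ct 19.23) and miR-204 (26.33). miR-146a is not particular to melanocytes, and its level is not read here as a sign of lineage. miR-211, named after its values were seen, was detected in 5 lines. Its raw Ct was 27.49 to 30.56 in L1-R2 and 29.0 to Undetermined in L1Mic-R2 (log2 fold change -6.57, limma adjusted p = 0.267). In this list 1 of 9 tested was called, miR-509-3-5p (log2 fold change -2.71, SE 0.53, limma adjusted p = 0.0392), and 8 of 9 were below 0, with a median of -0.95. Most of the 9 belong to the miR-506 to miR-514 cluster, so their directions are not separate observations. Over all microRNAs tested, 4.97% were called, 1.66% as lower, 45.9% were below 0 and the median was 0.06. Levels of each list were summed per line as 2 to the power of 40 minus the normalized Ct, and the log2 of the sum is given. For the melanocyte list it was 20.80 in the L1-R2 lines and 20.78 to 20.79 in the L1Mic-R2 lines, nearly all of it from miR-146a, which holds the same rank on every card. On raw Ct the sums were 20.92 to 21.70 and 19.92 to 20.69. The neural microRNAs summed to 16.14 to 16.57 in L1-R2 and 15.84 to 16.12 in L1Mic-R2, without overlap. On raw Ct they summed to 15.98 to 16.77 and 15.41 to 16.11, which overlap. Most of this sum came from miR-138, with a mean normalized Ct of 24.06, where miR-9 followed at 27.78. The normalized sum of the wider neural set went the other way. It was at most 12.64 in L1-R2 and at least 12.66 in L1Mic-R2, whereas on raw Ct the groups overlapped. Most of it came from 1 assay, miR-135b, with normalized means of 27.84 in L1-R2 and 27.43 in L1Mic-R2. miR-149 followed at 32.2 and 30.59. The raw Ct of miR-135b overlapped between the groups, so this sum gives no direction for the set. Of single microRNAs tested, 19.3% did not overlap between the groups in normalized Ct. Of the epithelial list, 2 of 8 were detected in all lines, with miR-200c (mean raw Ct 33.44) and miR-200b (34.37) the lowest and miR-205 Undetermined in all. Its normalized sum was 7.13 to 10.43 in L1-R2 and 6.30 to 8.39 in L1Mic-R2.

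Of the blood list, 0 of 5 were detected in all lines, and miR-142-5p and miR-451, the latter typical of red blood cells, were Undetermined in all. miR-142-3p was detected in 2 lines and did not pass the filter on detection. Its raw Ct was 35.93 to Undetermined in L1-R2, and it was Undetermined in every L1Mic-R2 line. miR-150, known from lymphocytes, was at a raw Ct of 33.09 to 34.93 in L1-R2 and later in each L1Mic-R2 line, from 35.54 to Undetermined (log2 fold change -3.35, limma adjusted p = 0.22). miR-223, known from myeloid cells, had the opposite sign, at a raw Ct of 37.37 to Undetermined in L1-R2 and 35.35 to Undetermined in L1Mic-R2 (log2 fold change 3.07, limma adjusted p = 0.245). The normalized sum of the list was 5.41 to 6.53 in L1-R2 and 2.32 to 5.50 in L1Mic-R2.

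Of the stroma and endothelium list, 4 of 6 (miR-143, miR-145, miR-199a-5p and miR-214) were Undetermined in all lines. miR-126, known from endothelium, was the only one detected in all lines, at a raw Ct of 32.46 to 35.06 in L1-R2 and 28.71 to 32.41 in L1Mic-R2 (log2 fold change 3.44, limma adjusted p = 0.104). miR-199a-3p was detected in 3 lines (log2 fold change 0.39, limma adjusted p = 0.895). The normalized sum was 5.26 to 7.31 in L1-R2 and 8.16 to 11.22 in L1Mic-R2, without overlap. miR-126 had the lowest normalized means of this list, 34.31 in L1-R2 and 30.87 in L1Mic-R2. The part of these other microRNAs in the values of miR-132 and miR-137 was not tested.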

How the data were processed

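MicroRNA was measured on 7 TaqMan Array A cards, 1 for each of 3 L1-R2 and 4 L1Mic-R2 lines. Per the study's methods, the authors extracted RNA with TRIzol and read the cards with SDS RQ Manager at a threshold of 0.3. The deposited values are Ct before normalization, in cycles, a log2 scale. A further deposited column was read as the final fluorescence intensity of the well, which its values bear out, since it was below 0.3 in each Undetermined well and above it in each other well. Line numbers follow the labels. The file names exchange 3T and 4T of L1-R2, which leaves the groups as they are.

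The Ct of 381 assays, with Undetermined at 40, was quantile normalized over the 7 cards (limma 3.58.1, R 4.3.3). MicroRNAs with a raw Ct below 38 in at least 3 lines entered limma (lmFit and eBayes on 40 minus Ct, no covariate, Benjamini-Hochberg over 181). Single values were compared by exact two-sided permutation tests (Python 3.11.15, scipy 1.17.1). The fit was tested on simulated data.

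Named microRNAs are the 6 members, miR-212, the control RNAs, the 3 most correlated with each member detected in all lines, and, from 5 lists, those called and the 2 detected with the lowest mean Ct. Other names, among them listed microRNAs Undetermined in all lines, were added after their values were seen. Members and lists were chosen with earlier results of these data known. Alternatives were other normalizations, Ct limits, detection filters and fits, a block by line number, and leaving out each line in turn. Nothing says that the lines were repeated from separate cultures, so p-values measure the spread between lines that share a founder line within each group. Sequences and positions were matched by name in the RefSeq tables (GRCh38.p14), with mature sequences for 5 members and miR-212.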

Additional observations from a re-analysis of the deposited data

Results flagged for a closer look

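The normalized Ct of miR-137 in L1Mic-R2 line 8T was 34.91, where the other 3 lines of the group were Undetermined and set to 40. The distance of this line from the rest takes up the whole range of the group. The same well sets the count of neural microRNAs detected, which was 5 in L1Mic-R2 line 8T and 4 in each of the other L1Mic-R2 lines. Both values rest on 1 well. With 3 of 4 values tied, the share of groups that would stand apart by chance is not defined.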

How the results depend on the processing

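The count of neural microRNAs called stayed at 0 under all 13 alternatives that kept the 7 lines, and was 0 to 1 when a line was left out, the 1 being miR-137 without L1Mic-R2 line 8T. Over all microRNAs, 9 were called, against 14 among those detected in all 7 lines and 21 in the robust limma fit with a trend. The count fell to 0 on the scale of RNU44 and RNU48 (unadjusted p under 0.05 for 37), to 0 when all 377 microRNAs entered (36), to 0 with the methods' two-tailed Student test (35), and to 0 to 4 with a line left out: 2 without L1-R2 line 4T, 0 without 3T or 8T of L1-R2 or 2T of L1Mic-R2, and 1, 4 and 3 without 3T, 7T and 8T of L1Mic-R2. The log2 fold change changed sign relative to RNU44 and RNU48 for miR-9 (0.31), miR-138 (0.32) and miR-212 (0.05). This scale moved the median of all microRNAs to 0.56, and counted from it the 3 were at -0.25, -0.24 and -0.51. The same values on raw Ct follow by construction. For miR-9 the sign also changed without L1-R2 line 3T (0.08, with -0.36 to 0.08 over the lines left out). The cause of the change with the line was not tested.

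Line numbers 3 and 8 occur in both groups, but the lines share only a number. Deviations of same-numbered lines from their group means correlated at -0.044 and -0.197. With the replicate block by the labels 0 microRNAs were called (19 unadjusted), and with the block by the numbers in the file names 0 (27 unadjusted). The block leaves 1 residual degree of freedom in place of 5. By the file names miR-9 was at 0.17 under the block.

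With a line left out, miR-9 minus miR-138 was 3.60 to 3.84 cycles and miR-128 minus miR-132 was 5.92 to 7.02, with adjusted p up to 0.0781, since 6 lines allow no lower exact p. On raw Ct, miR-132 and miR-212 correlated at r = 0.75 (exact permutation p = 0.0464), and with a line left out r on normalized Ct was 0.21 to 0.79. The within-card differences and the final fluorescence were added after seeing the data, as were values counted from the median of all microRNAs, values from lines with a Ct only, sums over raw Ct and the correlation of deviations. The count of microRNAs with the detection pattern of miR-137 was not among the planned results.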
